A study of Mus musculus with 6 samples.

Results

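The interferon-inducible GTPases described here were 10 mouse genes, Tgtp1, Tgtp2, Igtp, Irgm1, Irgm2, Iigp1 and Ifi47 of the immunity-related GTPase (IRG) family and Gbp2, Gbp3 and Gbp7 of the guanylate-binding protein (GBP) family, out of 53465 genes in the deposited table. They were compared between parental 4T1 cells (P, n = 3 libraries) and axitinib-resistant 4T1 cells (AxR, n = 3 libraries), to describe how gene expression differs between the lines. 4T1 is a mammary carcinoma cell line from the BALB/c mouse, and axitinib is an inhibitor of the VEGF receptor tyrosine kinases. According to the labels, AxR cells came from metastases that appeared after tumour surgery in mice on unbroken dosing with axitinib at 100 mg/kg/day, and were then kept in culture with 0.5 μM axitinib for over 2 months. Growth in mice, origin from a metastasis and drug exposure thus go together in AxR cells, and their parts in any difference from P cannot be told apart. The lesions were taken from lung or lymph node, and which of these gave this line, and whether it is 1 clone, is not given in the sources used here. The P cells carry no treatment label, although the growth label names the 0.5 μM drug for all 6 samples, so whether P cells saw axitinib in culture is not settled by the labels. The study itself calls the P cells of its expression comparison vehicle-treated, and describes continued drug in culture only for resistant cells. No label says that the 3 libraries of a line came from separate cultures, so every error below measures the spread between libraries of 1 line each. The genes were chosen from their higher values in AxR against P in these same libraries, and their levels and changes are therefore given as a description, with no test.

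IRG and GBP proteins are GTPases that cells make in response to interferons, above all interferon-γ, and that act inside the cell against parasites and bacteria living in vacuoles. IRG effectors such as Tgtp1 and Tgtp2 (together known as Irgb6), Iigp1 (Irga6) and Ifi47 (Irgd) coat the vacuole membrane and help to break it, while Irgm1, Irgm2 and Igtp (Irgm3) sit on the cell's own membranes and keep the effectors inactive there. GBPs are larger GTPases of the dynamin superfamily that assemble on the same vacuoles and on freed bacteria, and they feed into inflammasome signalling. Interferon-γ acts mainly through GAS elements in the promoters of its target genes, and type I and III interferons act mainly through ISRE elements, which IRF proteins also bind.

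The stretches around the interferon motifs nearest to the start sites are shown because all 10 genes are described as a group and most of these promoters hold such letters. The RefSeq promoter table (GRCm38.p6, 250 bases before to 50 bases after each annotated start) had an entry for 9 of the 10 genes, and Iigp1 was not among them. The motifs searched on both strands were the ISRE core GAAANNGAA and the GAS core TTCNNNGAA, and matches that lie wholly within a stretch are in capitals. The GAS matches of Gbp7, at -106 and -87 from its start, are not in capitals because they begin before its stretch, whose opening letters agaa end the nearer match. In the 3 GBP genes the ISRE core lay on the other strand, so its reverse complement is in capitals there, and in Irgm1 and Gbp3 a pair of overlapping ISRE matches runs together. The stretches lie at chr11:48992300-48992353 for Tgtp1, chr11:49064259-49064312 for Tgtp2, chr11:58199492-58199545 for Igtp, chr11:58214883-58214936 for Irgm2, chr11:48871421-48871474 for Irgm1, chr3:142620575-142620628 for Gbp2, chr3:142559976-142560029 for Gbp3 and chr3:142530254-142530307 for Gbp7, on the minus strand for Tgtp1, Tgtp2 and Irgm1 and on the plus strand for the others.
Tgtp1: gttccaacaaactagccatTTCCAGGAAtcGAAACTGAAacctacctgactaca
Tgtp2: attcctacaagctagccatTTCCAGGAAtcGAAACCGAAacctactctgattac
Igtp: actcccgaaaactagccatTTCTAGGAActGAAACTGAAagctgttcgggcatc
Irgm2: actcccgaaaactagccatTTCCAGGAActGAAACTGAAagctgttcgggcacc
Irgm1: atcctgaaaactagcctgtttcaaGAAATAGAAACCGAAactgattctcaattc
Gbp2: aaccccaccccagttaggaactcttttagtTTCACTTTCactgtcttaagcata
Gbp3: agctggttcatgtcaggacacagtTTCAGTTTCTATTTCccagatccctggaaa
Gbp7: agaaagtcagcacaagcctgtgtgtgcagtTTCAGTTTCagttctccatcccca

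At least 1 ISRE core was found in the windows of 8 of the 9 genes, against 9.76% of the 27025 genes with RefSeq promoter windows of this length. By window, the share was 8.56% of all 32851. Irgm1 and Gbp3 each held 2 ISRE cores, which 0.624% of all windows did. The first base of the ISRE match lay at position -77 from the start in Tgtp1, -70 in Tgtp2, -34 in Igtp, -64 in Irgm2, -58 in Gbp2 and -52 in Gbp7, at -30 and -24 in Irgm1 and at -44 and -38 in Gbp3. A GAS core stood in 5 of the windows, those of Tgtp1, Tgtp2, Igtp, Irgm2 and Gbp7, against 8.30% of all windows, and both motifs together stood in 1.07% of all windows. In Tgtp1, Tgtp2, Igtp and Irgm2 the GAS match began 11 bases before the ISRE match, a spacing that was noticed only after the sequences had been read and that 8 of the 32851 windows (0.024%) held. The IRG relative Gm12185 was another of the 8, with its GAS match at -86 and its ISRE match at -75, and it was not called changed. Ifi47 held neither motif in its window, and neither did the window at the downstream start of Gbp3. The stretches of Tgtp1, Tgtp2, Igtp and Irgm2 are also alike in the letters just before the GAS match. These genes are thus not independent occurrences of the spacing. All matches are letter matches and not measured binding.

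**Figure D1:**
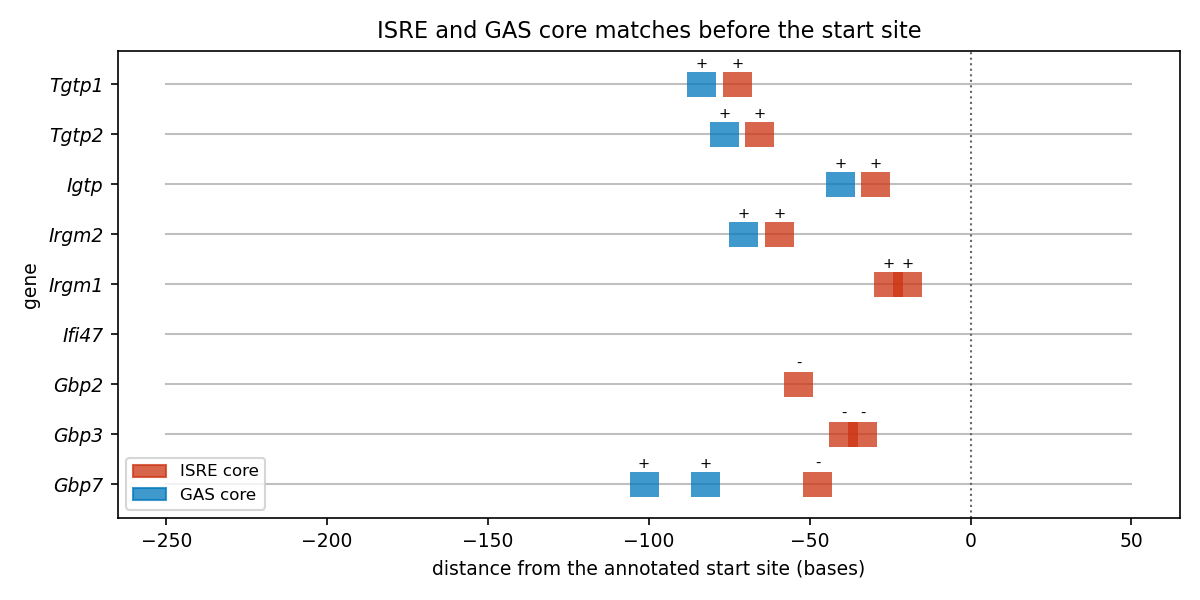
Matches to the ISRE core and the GAS core in the promoter window of each of the 9 genes read, drawn by distance in bases from the annotated start site (dotted line), with the strand of each match above it relative to the gene (the GAS core reads alike on both strands). ISRE matches lie between -77 and -24 in 8 genes, GAS matches stand just ahead of them in Tgtp1, Tgtp2, Igtp and Irgm2, and Ifi47 has neither.

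The RNA-seq libraries held 15495260 to 17294525 estimated counts each. A level is given below as CPM, the counts scaled to a common library size, with upper-quartile normalization, and 3 counts in a library corresponded to 0.171 to 0.196 CPM. Of 13550 genes tested by edgeR's quasi-likelihood test, 63.5% differed between AxR and P at an adjusted p under 0.05, with 32.8% higher and 30.8% lower in AxR, so that a changed gene was the common case in this comparison. The libraries were poly(A)-selected from whole cultures, in which fewer cells making a transcript and less transcript per cell cannot be told apart. The 10 epithelial markers were all expressed in both lines, and 5 (Epcam, Cdh1, Krt7, Krt8 and Krt18) were called higher in AxR and 4 (Krt19, Cldn3, Cldn4 and Cldn7) lower. Among them Krt7 went from 369.6 ± 29.5 to 719.6 ± 46.8 CPM and Cldn7 from 8.22 ± 1.19 to 0.751 ± 0.108 CPM (SD, n = 3). Of 14 leukocyte markers, 7 (Tyrobp, Fcer1g and Adgre1 among them) had no count in any library and Ptprc never exceeded 3 counts, while Cd68, Cd14 and Cd74 were called higher and took the summed level from 12.1 to 14.0 CPM in P to 42.2 to 51.8 CPM in AxR. The summed level of 8 fibroblast markers went from 31.3 to 34.8 CPM in P to 268 to 294 CPM in AxR, with Postn called higher (9.56 ± 1.22 to 270.2 ± 13.2 CPM), Pdgfra called lower (22.6 ± 0.669 to 10.1 ± 0.641 CPM) and Col3a1, Lum and Thy1 at 0 throughout. The 8 endothelial markers summed to 5.96 to 6.87 CPM in P and 3.44 to 4.13 CPM in AxR, with Kdr, Emcn and Cldn5 at 0. The 9 lung epithelium markers summed to 0.751 to 1.22 CPM in P and 4.57 to 4.72 CPM in AxR, with Foxj1 called higher and Sftpd, Scgb1a1 and Scgb3a2 at 0. What part these marker changes have in the GTPase values was not tested.

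All 10 GTPase genes were higher in AxR cells, and for each of them every AxR library lay above every P library, as was true of 35.1% of all genes tested. Their log2 fold changes ran from 1.71 to 6.45 with a median of 3.21, against a median of 0.0058 over all genes tested, and their places in the ranking by log2 fold change ran from 19 to 478 of 13550. Summed over the 10 genes, the level was 27.6, 23.9 and 26.1 CPM in the P libraries and 163, 183 and 143 CPM in the AxR libraries. The filter on low counts kept Tgtp1, Tgtp2 and Iigp1 through their AxR libraries alone, since none of their P libraries reached 10 counts, and these 3 genes therefore had to differ. For the 6 genes at 10 counts or more throughout P the median was 2.84. Leaving out each library in turn kept the 10-gene median between 3.12 and 3.32.

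**Figure D2:**
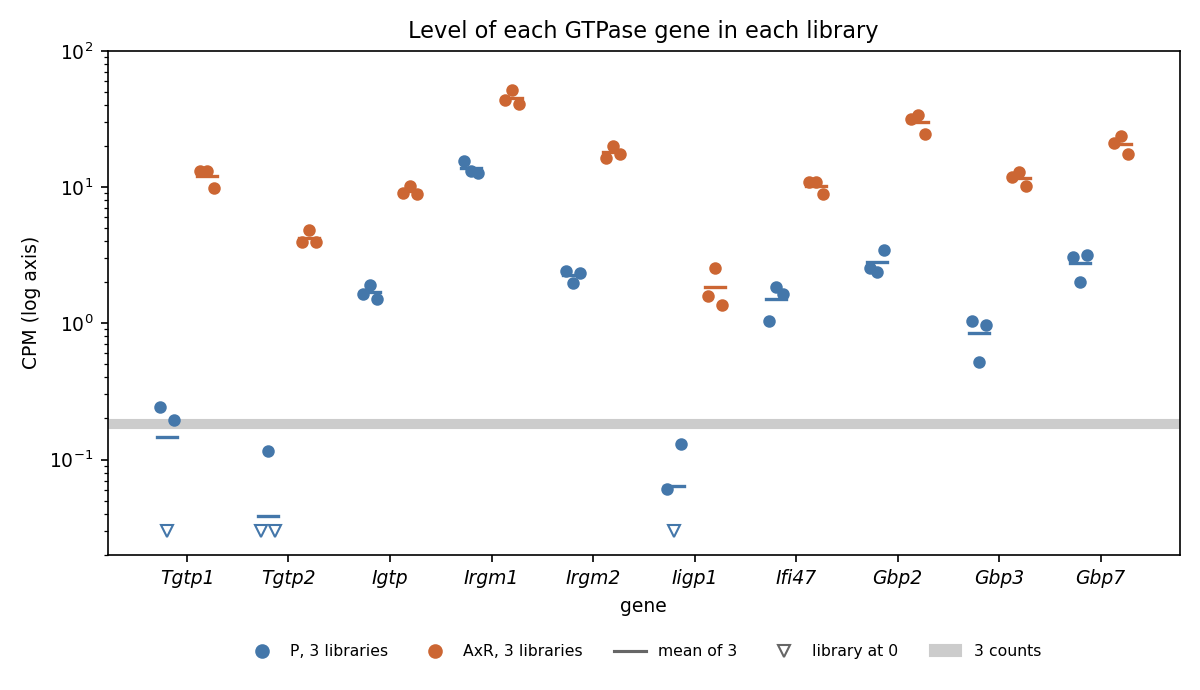
CPM of each of the 10 genes in each library on a log axis (P in blue, AxR in orange, 3 libraries each), with the mean as a line, libraries at 0 as open triangles at the foot of the plot and the level of 3 counts as a grey band. Every AxR point lies above every P point of the same gene, and Tgtp1, Tgtp2 and Iigp1 are at or near the band in P.

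Among the effectors, Tgtp1 had 4, 0 and 3 estimated counts in the P libraries and 208, 205 and 174 in the AxR libraries. P cells were thus at the edge of detection, while all 3 AxR libraries were far above it, at 12.1 ± 1.87 CPM (SD, n = 3). Tgtp2 had 0, 2 and 0 counts in P and 62.5, 75.6 and 69.2 in AxR, or 4.24 ± 0.528 CPM in AxR. With so few P counts the size of the change is given as the ratio of summed counts, scaled for library size, with its exact 95% interval, which covers counting error only. The 587 counts in AxR over 7 in P for Tgtp1 gave a ratio of 84.0 (40.5 to 210), and 207 over 2 for Tgtp2 gave 104 (28.4 to 862). The fitted log2 fold changes were 6.32 (SE 0.326) and 6.45 (SE 0.468), the highest of the 10 genes, but single P libraries moved them. Tgtp1 came to 6.92 without P replicate 1 and 5.72 without P replicate 2, and Tgtp2 to 9.10 without P replicate 2, its only P library with a count, and to 5.95 and 5.99 without P replicates 1 and 3.

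Tgtp1 and Tgtp2 are near-identical copies, which bears on every value given for them singly. Their coding sequences, 1245 bases each, matched at 1241 positions with 4 mismatches (99.7% identity), and the longest run without a difference was 510 bases. The stretch below, coding bases 676 to 735, holds 2 of the 4 mismatches, in capitals. It is shown because a read that lies within the coding sequence must span such a base to tell the copies apart. It lies at chr11:48987142-48987201 in Tgtp1 and chr11:49059009-49059068 in Tgtp2 (GRCm38, minus strand, within an exon of each gene).
Tgtp1: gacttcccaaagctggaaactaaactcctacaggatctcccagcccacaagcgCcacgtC
Tgtp2: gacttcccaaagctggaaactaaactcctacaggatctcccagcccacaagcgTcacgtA

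RSEM, the program that made the counts, shares out reads that match several genes by estimated proportions, and such genes often have values that are not whole numbers. Of the 75-base windows along their annotated transcripts, 77.2% in Tgtp1 and 81.4% in Tgtp2 also occurred in another gene, mostly the other copy. The AxR values of both genes were not whole in all 3 libraries. Their sum does not depend on how RSEM divided reads between the copies. Both also shared windows with the IRG relative Gm12185, at 0.523 ± 0.171 CPM in P and 0.902 ± 0.113 CPM in AxR (SD, n = 3). Reads divided with that gene could still move the sum. Summed, the pair had 4, 2 and 3 counts in P and 271, 281 and 243 in AxR, which is 0.185 ± 0.0645 CPM against 16.3 ± 2.19 CPM (SD, n = 3). The 794 rounded AxR counts over 9 P counts gave a ratio of 88.4 (46.3 to 194), with a fitted log2 fold change of 6.41 (SE 0.239). Leaving out single libraries kept this value between 6.16 and 6.67, a narrower range than for either copy. RSEM assigned 76.9%, 73.1% and 71.5% of the pair's counts to Tgtp1 in the 3 AxR libraries (exact 95% intervals 71.3% to 81.6%, 67.4% to 78.1% and 65.5% to 77.2%). Those intervals leave out the uncertainty of the assignment itself, which the deposited table does not carry, and the few P counts allow no split to be read.

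**Figure D3:**
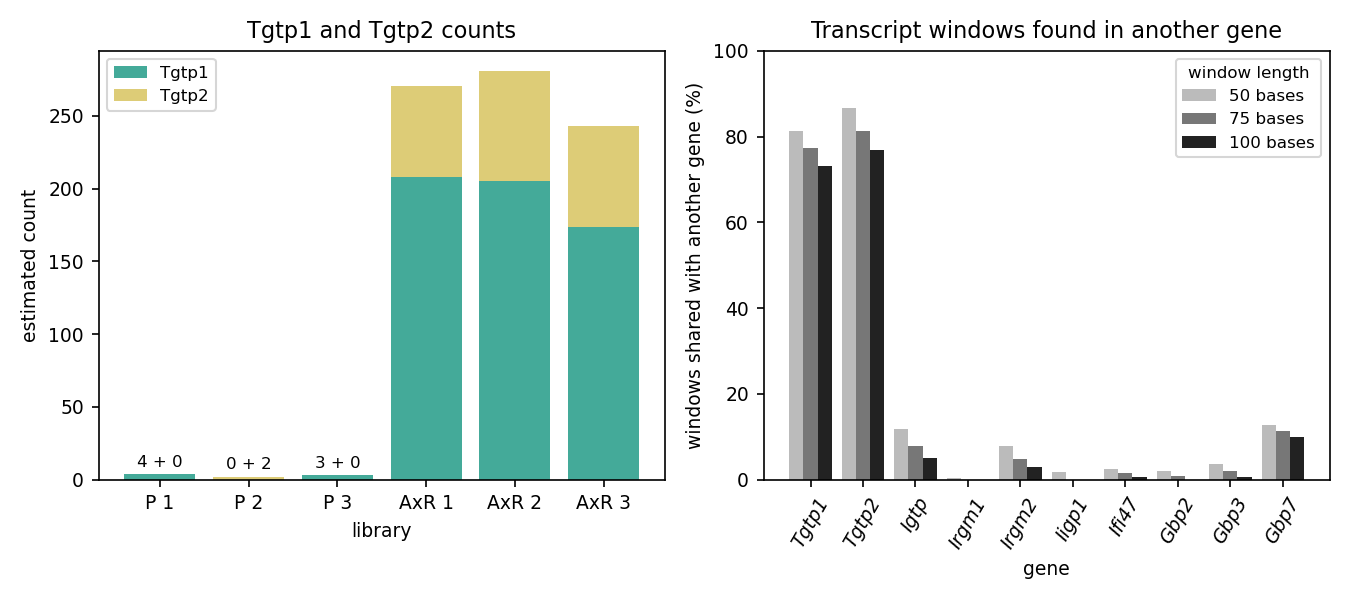
Left, estimated counts of Tgtp1 and Tgtp2 stacked for each library, with the P counts written above the bars. Right, the share of 50-, 75- and 100-base windows of each gene's annotated transcripts that also occur in another gene on the same strand. The pair goes from 2 to 4 counts in P to 243 to 281 in AxR, and Tgtp1 and Tgtp2 stand apart from the other 8 genes in shared windows at all 3 lengths.

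Iigp1, on chromosome 18, was the least expressed of the 10 in AxR cells. It had 1, 0 and 2 counts in the P libraries and 25, 40 and 24 in the AxR libraries. The groups did not overlap. AxR replicate 2 was the highest AxR library, a difference between few counts that was not tested. The 89 AxR counts over 3 P counts gave a ratio of 29.7 (exact 95% interval 9.85 to 147, counting error only). The fitted log2 fold change was 4.73 (SE 0.570), and came to 5.63 without P replicate 3 and 4.17 without P replicate 2. No 75-base window of Iigp1 occurred in another gene. Ifi47 had 17, 32 and 25 counts in the P libraries and 170, 172 and 156 in the AxR libraries, with no overlap. In CPM the lowest AxR library was 4.80 times the highest P library, and the log2 fold change was 2.75 (SE 0.185). Ifi47 shared 1.55% of its 75-base windows, all with the olfactory receptor gene Olfr56.

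The 3 regulatory IRGs were already well detected in P cells, and their log2 fold changes were smaller than those of the Tgtp pair. This did not part regulators from all effectors, since Ifi47, also well detected in P, lay among them at 2.75. Irgm1, at chr11:48861968-48871683, stood at 15.6, 13.1 and 12.7 CPM in P and 43.6, 51.3 and 40.3 CPM in AxR. It was the most abundant of the 10 in P by CPM, and its log2 fold change of 1.71 (SE 0.103) was the smallest, with the lowest AxR library 2.59 times the highest P library. Irgm2 stood at 2.43, 1.96 and 2.35 CPM in P and 16.2, 20.2 and 17.4 CPM in AxR, a log2 fold change of 2.99 (SE 0.140). Igtp stood at 1.64, 1.91 and 1.50 CPM in P and 9.02, 10.2 and 8.82 CPM in AxR, a log2 fold change of 2.46 (SE 0.157). Both genes were at least 4.63 times higher in their lowest AxR library than in their highest P library. Igtp and Irgm2 lie on the plus strand at chr11:58199556-58207591 and chr11:58199618-58222782, so the annotated extent of Irgm2 contains most of Igtp. They shared 7.80% of the 75-base windows of Igtp, and their coding sequences were 66.3% identical with a longest common run of 141 bases, so part of their reads could be divided between them. Irgm1 shared no 75-base window, and all 6 of its values were whole.

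The 3 GBPs lie in the GBP cluster of chromosome 3, at chr3:142530342-142550149 (Gbp7), chr3:142560026-142573209 (Gbp3) and chr3:142620602-142638008 (Gbp2). Gbp2 stood at 2.55, 2.37 and 3.46 CPM in P and 31.6, 33.5 and 24.5 CPM in AxR, a log2 fold change of 3.42 (SE 0.158). Gbp3 stood at 1.03, 0.520 and 0.978 CPM in P and 11.9, 12.8 and 10.1 CPM in AxR, a log2 fold change of 3.78 (SE 0.202). Gbp7 stood at 3.04, 2.02 and 3.20 CPM in P and 21.2, 23.7 and 17.4 CPM in AxR, a log2 fold change of 2.92 (SE 0.162). In all 3 the lowest AxR library was at least 5.45 times the highest P library. Gbp3 and Gbp7 were the closest GBP pair in coding sequence (76.0% identity) and shared 2.06% of the 75-base windows of Gbp3. Gbp7 shared 11.3% of its windows, mostly with Gm43802, a pseudogene annotated inside it, and none of its 6 values was whole. The median log2 fold change over the 717 tested genes of chromosome 3 was 0.32, over the 318 of chromosome 18 it was 0.50 and over the 1046 of chromosome 11 it was 0.0077. Taking each chromosome's median away left 3.10 for Gbp2, 2.59 for Gbp7 and 4.23 for Iigp1, and a 10-gene median of 3.04.

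Levels of different genes were compared per kilobase of annotated exon. In AxR cells Gbp2 was first at 11.9 ± 1.89 CPM per kb (SD, n = 3), followed by Irgm1 at 7.76 ± 0.972, and these 2 did not overlap each other or the gene below. Irgm2, Igtp, Ifi47, Tgtp1, Gbp7 and Gbp3 followed between 4.86 and 3.56 CPM per kb on average, and each overlapped its neighbour in this order. Tgtp2 at 1.44 ± 0.180 and Iigp1 at 0.315 ± 0.108 CPM per kb came last, each below the gene above it. The places of Tgtp1 and Tgtp2 rest on how RSEM divided the reads of the pair, which the SDs do not cover. In P cells Irgm1 was first at 2.37 ± 0.266 CPM per kb, above Gbp2 at 1.11 ± 0.231, which overlapped Igtp. Irgm2, Ifi47 and Gbp7 overlapped in the middle at 0.609 to 0.490 CPM per kb on average. Gbp3 at 0.258 ± 0.0864 CPM per kb came next, and Tgtp1, Tgtp2 and Iigp1 overlapped at the bottom.

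Within the AxR line most of the 10 genes ordered the libraries alike. AxR replicate 2 had the highest CPM for 9 of the 10 genes and AxR replicate 3 the lowest for 9 of the 10, while over all tested genes these libraries held the highest of the 3 AxR values in 31.3% and the lowest in 38.4%. Scaled by library total alone, AxR replicate 2 was highest for all 10 genes and AxR replicate 3 lowest for 7. The median coefficient of variation over the genes was 12.5% in AxR and 25.6% in P. It was highest for the genes with few counts, at 173% for Tgtp2, 102% for Iigp1 and 88.1% for Tgtp1 in P, and at 34.35% for Iigp1 in AxR.

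The rest of the family was taken from lists by gene name, written with earlier results of these data known, so the counts below are no independent support. Of 8 other GBP genes 7 were tested, and these were called higher in AxR by edgeR's quasi-likelihood test, against 32.8% of all genes. Gbp5, Gbp6, Gbp8 and Gbp10 had no P library at 10 counts and passed the filter on low counts only through AxR, so their calls had to be higher. With 10 counts required in every library, 3 calls were left. Gbp5, a GBP linked to inflammasome assembly, had a fitted log2 fold change of 4.76 (SE 0.620), and Gbp10 of 4.68 (SE 0.644), Gbp6 of 4.61 (SE 0.389) and Gbp8 of 4.18 (SE 0.573). None of these 4 averaged above 0.196 CPM in P, and without 1 P library Gbp10 came to 8.22 (replicate 1), Gbp6 to 5.66 (replicate 2) and Gbp8 to 5.45 (replicate 3). Gbp4 went from 1.65 ± 0.580 to 21.4 ± 2.68 CPM, Gbp2b from 3.11 ± 0.836 to 21.7 ± 2.59 CPM and Gbp9 from 4.46 ± 0.789 to 28.2 ± 4.30 CPM, with log2 fold changes of 3.70, 2.81 and 2.66. Gbp6 and Gbp10 shared 67.3% and 77.7% of their 75-base windows with other genes, mostly each other and Gm43302, so their split is as uncertain as that of the Tgtp pair. Gbp11 was not tested, at 0 in every P library and 0.140 ± 0.0827 CPM in AxR.

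Of 11 other IRG genes, 4 were tested, 2 of which were called higher, 1 lower and 1 neither, against 32.8% higher and 30.8% lower of all genes. The near-duplicate genes 9930111J21Rik1 and 9930111J21Rik2, which flank Tgtp1, had log2 fold changes of 1.96 (SE 0.226, adjusted p = 2.85e-06) and 2.46 (SE 0.0786, adjusted p = 2.05e-12) by edgeR's quasi-likelihood test. They shared 76.0% and 52.1% of their windows with other genes, chiefly with each other. Irgq, an IRG relative that is not counted among the interferon-inducible ones, fell by 0.88 on the log2 scale (SE 0.0738), from 32.3 ± 1.13 to 17.5 ± 0.847 CPM. Gm12185 had a log2 difference of 0.76 (SE 0.361), which did not pass (adjusted p = 0.0796 by edgeR's quasi-likelihood test). The direction of change was therefore not common to the whole IRG list. Of 5 other interferon-inducible GTPases, Gm4070, a very large inducible GTPase, and Mx2, a dynamin-like antiviral GTPase, were tested, with log2 fold changes of 0.88 (SE 0.0556) and 2.70 (SE 0.470), both called higher, against 32.8% of all genes. Mx2 had 2 counts in each P library and 12, 12 and 17 in the AxR libraries, so it passed the filter only through AxR, and its call was lost when 10 counts were required in every library. Gm17757 had no row under that name, and Mx1 (0.0830 ± 0.0411 and 0.305 ± 0.163 CPM in P and AxR) and Gvin1 were not tested. Gvin1 had counts in AxR replicate 2 only (18.4), and shared 98.3% of its windows, nearly all with Gm4070. Gm4070 in turn shared 96.7% of its 75-base windows, mostly with Gvin1, and none of its 6 values was whole. Its level and change thus depend on how RSEM divided reads among such genes.

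**Figure D4:**
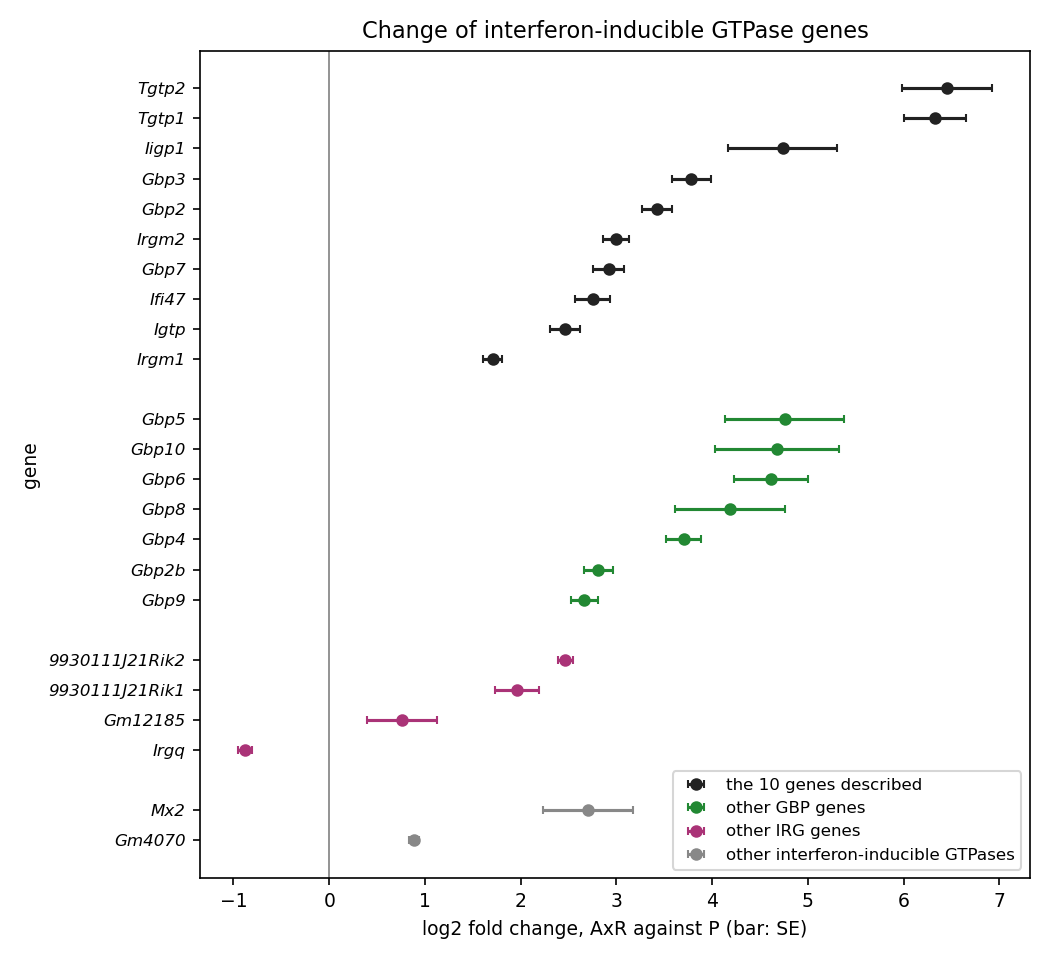
Fitted log2 fold change of AxR against P with its SE for the 10 genes described (black), the tested other GBP genes (green), other IRG genes (purple) and other interferon-inducible GTPases (grey). The 10 genes span 1.71 to 6.45, the other GBP genes 2.66 to 4.76, and Irgq alone lies below 0.

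Genes of the interferon pathway were counted from lists in the same way. Of 20 interferon ligand genes none could be tested, since 17 had no count in any library and the other 3 never exceeded 3 counts. Ifng, which encodes interferon-γ, had 1 count each in P replicate 3, AxR replicate 1 and AxR replicate 2. Of 9 receptor and kinase genes, 3 were called higher and 5 lower, against 32.8% and 30.8% of all genes, and the median log2 fold change was -0.31. Of the interferon-γ receptor chains, Ifngr1 had a log2 fold change of 0.63 (SE 0.0699) and Ifngr2 of -0.47 (SE 0.0636). Ifnlr1 had the highest value at 0.66 and Ifnar1, a chain of the type I receptor, the lowest at -0.68. Jak2 fell by 0.31 on the log2 scale and Jak1 stood at 168 ± 2.39 and 173 ± 5.77 CPM with a log2 difference of 0.04, which did not pass. Tyk2, among the 3 called higher, missed the threshold without P replicate 3 and without AxR replicate 2.

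Of 8 tested STAT and IRF factors 5 were called higher and 2 lower, against 32.8% and 30.8% of all genes, with a median log2 fold change of 0.94. Irf7, the inducible factor of the type I interferon loop, went from 0.895 ± 0.199 to 7.85 ± 0.609 CPM, a log2 fold change of 3.12 (SE 0.193, adjusted p = 2.38e-09 by edgeR's quasi-likelihood test). Irf1, itself induced through GAS, rose by 1.42 (SE 0.0676), while Irf8 fell by 1.39 (SE 0.143) on the same log2 scale. Of 8 interferon signalling inhibitors 4 were called higher and 3 lower, against the same shares, with a median of 0.18. The highest value belonged to Isg15, which was listed beside Usp18 as the ubiquitin-like modifier that Usp18 removes from proteins. Isg15 stood at 0.629 ± 0.193 CPM in P and 19.6 ± 0.518 CPM in AxR (log2 fold change 4.94, SE 0.165), and whether it inhibits signalling was not tested. Usp18 came next, at 0.634 ± 0.0735 CPM in P and 4.06 ± 0.932 CPM in AxR (log2 fold change 2.67, SE 0.265). The lowest was Socs3 at -0.58 (SE 0.0946). Socs1, an interferon-induced inhibitor of JAK kinases, had 2.91 ± 0.607 CPM in P and 3.06 ± 0.0707 CPM in AxR, a log2 difference of 0.07 (SE 0.195) that did not pass. Pias1, called lower, missed the threshold without P replicate 3.

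Downstream, 16 genes were listed as vacuole loading and autophagy partners of IRGs and GBPs. They were split between 8 higher, 7 lower and 1 neither, against 32.8% higher and 30.8% lower of all genes, with a median of 0.16. Ube2l6 had the highest log2 fold change at 1.46 (SE 0.177), but it is the conjugating enzyme of Isg15, and a part in vacuole loading was not tested. Map1lc3a, an LC3 protein, had the lowest at -0.97 (SE 0.112). Of 10 GBP-linked inflammasome genes 5 were tested, of which 3 were called higher, against 32.8% of all genes, and 2 neither, with a median of 0.63. Casp1, the inflammasome protease, rose by 2.57 (SE 0.274), from 0.634 ± 0.186 to 3.80 ± 0.745 CPM, and Casp4, the sensor of cytosolic lipopolysaccharide, by 0.62 (SE 0.163) on the log2 scale. Without P replicate 3, 5 of the genes in this list were called higher, with Il18 and Naip5 added.

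**Figure D5:**
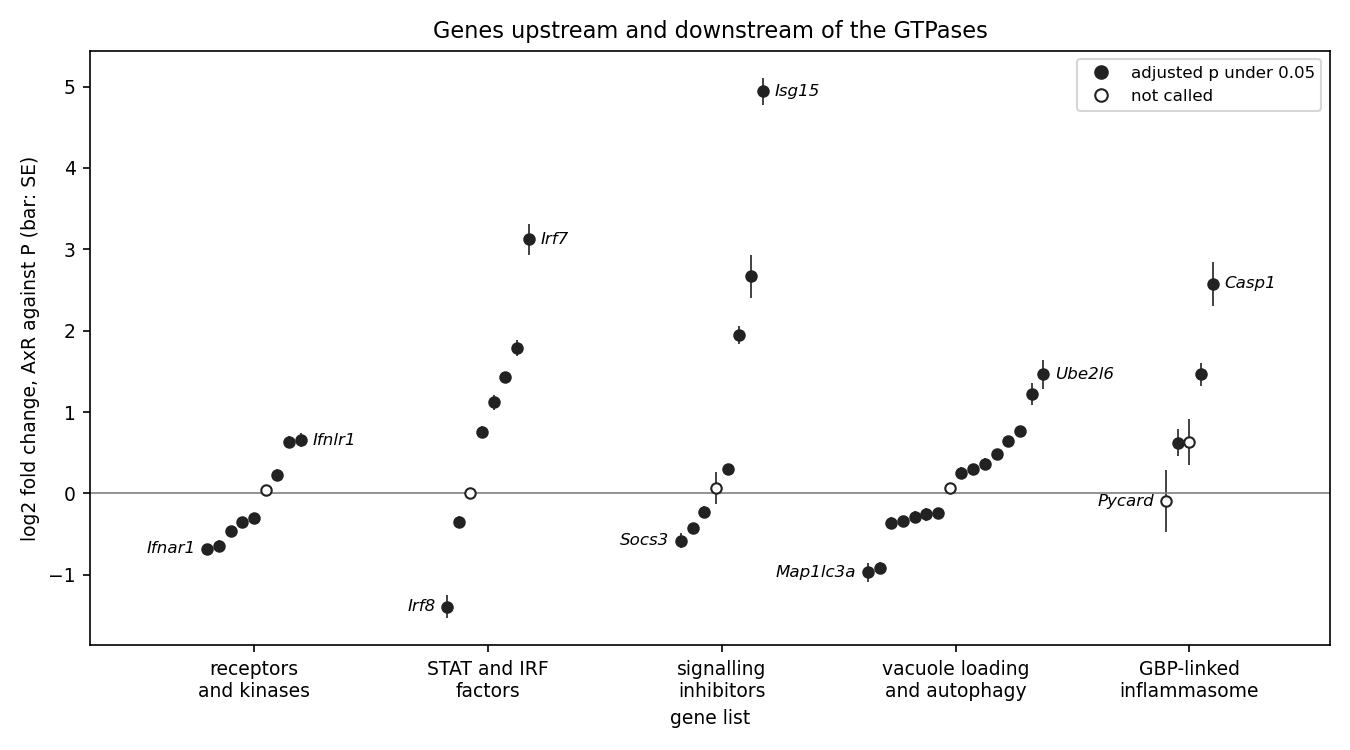
Fitted log2 fold change of AxR against P with its SE for every tested gene of 5 pathway lists, filled where the adjusted p was under 0.05 and open where it was not, with the highest and lowest gene of each list named. Values range from -1.39 (Irf8) to 4.94 (Isg15), and the receptor and kinase genes all lie between -0.68 and 0.66.

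Most of the nearest tested genes outside the family, on each side of the GTPase loci, had smaller log2 fold changes. Beside the chromosome 11 run that holds Irgm1, Tgtp1, Tgtp2 and Ifi47, the nearest tested genes outside the family were Trim7 at -0.07 (SE 0.149, not called) and Zfp62 at -0.36 (SE 0.0809, called lower) on the log2 scale. Psme2b, a gene for a proteasome activator subunit that lies inside this run, was called higher at 1.16 (SE 0.0978). Beside Igtp and Irgm2 lay Mrpl22 at -0.02 (SE 0.0912, not called) and, 52.0 kb away, 4930438A08Rik, which went from 0.0395 ± 0.0342 to 0.803 ± 0.246 CPM (fitted log2 fold change 4.06, SE 0.660). Its P level was below that of 3 counts, so it too was tested only through its AxR libraries. Beside the GBPs of chromosome 3 lay Pdlim5 at 0.50 and Kyat3 at 0.43, both called higher. For Iigp1 the nearest such genes were Smim3, 81.6 kb away, at -0.84 and called lower, and Isoc1 at 0.48, called higher. Isoc1 lies 1695.7 kb from Iigp1 and is thus no close neighbour.

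Likeness to the mean profile of the 10 genes over the 6 libraries was measured as the root mean square difference in log2 CPM, among genes with at least 10 CPM in AxR. The 5 nearest other genes were Sorbs3 (0.0798), Adamts9 (0.121), Psmb8 (0.140), Car5b (0.151) and Xdh (0.156), none of which lies on chromosomes 3, 11 or 18. Psmb8, a subunit of the immunoproteasome, went from 8.43 ± 0.567 to 91.8 ± 6.23 CPM. Of the 10 genes themselves Gbp2 lay nearest to their mean profile (0.113) and Tgtp1 farthest (1.67).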

How the data were processed

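Poly(A) RNA of 3 P and 3 AxR samples was sequenced after TruSeq stranded library preparation. The authors deposited estimated counts per gene from RSEM 1.3.1, made from STAR 2.6.0a alignments (build GRCm38, GENCODE M16). The read length and the strand setting of the counting are not given in the sources used here. Names, coordinates and exon lengths came from GENCODE M21 by Ensembl ID (53274 of 53465 found). The estimated counts were rounded, filtered with filterByExpr, scaled by upper quartile as in the study, and tested with edgeR 4.0.16 (robust quasi-likelihood test, Benjamini-Hochberg over 13550 genes), after a check on simulated data. TMM, library-size scaling, DESeq2 1.42.0, limma-voom, other filters, a replicate block and leaving out each library were tried. Intervals cover counting error only. The genes and all lists were chosen with earlier results of these data known. Named were all 10 genes, every tested relative, the extremes and fixed genes of each pathway list, the neighbours of each locus and the 5 nearest profiles. RefSeq gave the promoters.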

Additional observations from a re-analysis of the deposited data

How the results depend on the processing

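Each of the 10 log2 fold changes stayed above 0, and the 10 genes kept apart in P and AxR, under every alternative that kept them. A requirement of 10 counts in every library left 6 of the 10 genes (6 with no overlap, median log2 fold change 2.83), 3 other GBP genes called higher and 1 other interferon-inducible GTPase called higher, because fewer genes were tested. No filter gave 6 other IRG genes called higher, with Gm12250, Gm5431, Gm4951 and F830016B08Rik added at few counts. Counting only calls with a log2 change of 1 or more in size left 1083 genes higher and 640 lower, 1 STAT or IRF factor lower, 2 vacuole loading and autophagy partners higher, 1 other interferon-inducible GTPase higher, and 0 in each of these: receptors and kinases higher, receptors and kinases lower, inhibitors lower, vacuole partners lower and other IRG genes lower. These counts at the fold limit come from the same fit, where adjusted p alone called 4441 genes higher and 4167 lower. With 1 library left out, the summed Tgtp pair ran from 6.16 to 6.67 and the GBP-linked inflammasome calls from 4 to 5, where Naip5 passed the count filter, Il18 the threshold, or both did. DESeq2 called 3962 genes higher and 3913 lower, with Tyk2 no longer called. Same-numbered P and AxR libraries did not deviate together (correlations -0.008, -0.151 and -0.235). Deviations within 3 libraries per line cannot settle whether the numbers pair them, and no label states a pairing. With the replicate block 4304 genes were called higher and 4023 lower, the 10-gene median was 3.20, and no pathway list gained or lost a call. Depth limits Tgtp1, Tgtp2 and Iigp1 in P, where all 3 libraries together held 7, 2 and 3 counts, and the split of shared reads cannot be checked from estimated counts.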
